A study of Mus musculus with 8 samples.

Results

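A set of 10 myeloid C-type lectin receptor genes was followed across bone marrow derived immature myeloid cells (IMCs) in which PARP1 or PARP2 had been deleted. They are Clec4a1, Clec4a2, Clec4a3, Clec4d, Clec4e, Clec4n, Clec5a, Clec7a, Clec10a and Clec12a, taken by symbol from the count table, where all 10 were found among 24062 genes. All 10 passed the filter on low counts and were among the 13197 genes tested. RNA-seq was run on IMCs of both knockouts (PARP1CKO and PARP2CKO) and of Cre-free littermates, with 2 libraries in each of 4 groups, described as biological duplicates. The mice were C57BL/6, aged 2 months, and their bone marrow cells were grown for 3 days with M-CSF at 40 ng/mL. Both control groups also carry floxed alleles. PARP1 WT is PARP1 flox/flox, PARP1CKO is PARP1 flox/flox+lysozyme-Cre, PARP2 WT is PARP2 flox/flox and PARP2CKO is PARP2 flox/flox+lysozyme-Cre. Lysozyme-Cre is active throughout the myeloid lineage, so deletion is not limited to IMCs, and the presence of Cre and the loss of the target cannot be told apart within a line.

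C-type lectin receptors of this kind are surface proteins with a carbohydrate-recognition fold, by which myeloid cells sense sugars and lipids of fungi, bacteria and damaged cells. Some signal for activation, either through a partner chain (the Fc receptor gamma chain Fcer1g, or the adaptors Tyrobp and Hcst) or through a tyrosine motif of their own, and the kinase Syk and the adaptor Card9 carry that signal to NF-κB. Others carry an inhibitory motif that recruits phosphatases such as Ptpn6. On the map, 9 of the 10 genes lie on chromosome 6 in mm10. The Clec4 cluster holds 6 of them within 368 kb, in the order Clec4a1 (chr6:122921848-122934619), Clec4a3 (chr6:122952515-122969875), Clec4a2 (chr6:123106428-123143999), Clec4n (chr6:123229843-123247021), Clec4d (chr6:123262111-123275265) and Clec4e (chr6:123281789-123289870), of which only Clec4e is on the minus strand. Clec12a (chr6:129342691-129365303, plus strand) and Clec7a (chr6:129461591-129472779, minus strand) share a 130.1 kb stretch further along. Clec5a stands apart at chr6:40574894-40585821 (minus strand), and Clec10a is on chromosome 11 (chr11:70156197-70170834, plus strand). The exons of the 10 genes share no base with those of another gene. Of all 75-base windows of their transcripts, the length of the reads, 3.24% in Clec4a2 also occurred in Clec4a4 or Clec4b1 and 4.44% in Clec10a also occurred in Mgl2, so a small part of the reads of these 2 genes could not be assigned with certainty. No such window was found for the other 8 genes. Clec7a is annotated in GENCODE M21 as a polymorphic pseudogene and the other 9 as protein coding.

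Upstream sequence is shown for 4 of the genes in the line comparison described further on. Clec7a, Clec4a2 and Clec4d did not overlap between the 2 floxed lines, and Clec4e, with lower levels in the PARP2 line, overlapped only slightly. Clec5a overlapped slightly as well, but its sequence is not shown. Each line below gives the 250 bases before a RefSeq transcription start in GRCm38.p6, 5′ to 3′ on the strand of the gene, for Clec7a at chr6:129472780-129473029 (minus), Clec4a2 at chr6:123122440-123122689 (plus), Clec4d at chr6:123261857-123262106 (plus) and Clec4e at chr6:123289872-123290121 (minus). The RefSeq start of Clec4a2 lies inside the gene as GENCODE draws it. Capitals mark matches, on either strand, to GAGGAA (a core bound by ETS factors such as PU.1, read as TTCCTC on the other strand), TTGCNNAA (a word bound by C/EBP factors) and TATAAA.
Clec7a: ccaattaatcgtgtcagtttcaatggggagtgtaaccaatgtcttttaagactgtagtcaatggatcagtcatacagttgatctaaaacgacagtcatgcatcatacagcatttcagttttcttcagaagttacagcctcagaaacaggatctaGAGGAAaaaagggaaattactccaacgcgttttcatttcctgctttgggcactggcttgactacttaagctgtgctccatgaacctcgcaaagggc
Clec4a2: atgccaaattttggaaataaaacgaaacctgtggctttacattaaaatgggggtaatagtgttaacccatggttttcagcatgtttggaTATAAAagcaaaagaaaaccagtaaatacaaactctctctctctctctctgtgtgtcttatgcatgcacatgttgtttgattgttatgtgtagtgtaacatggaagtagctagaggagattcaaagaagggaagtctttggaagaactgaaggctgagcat
Clec4d: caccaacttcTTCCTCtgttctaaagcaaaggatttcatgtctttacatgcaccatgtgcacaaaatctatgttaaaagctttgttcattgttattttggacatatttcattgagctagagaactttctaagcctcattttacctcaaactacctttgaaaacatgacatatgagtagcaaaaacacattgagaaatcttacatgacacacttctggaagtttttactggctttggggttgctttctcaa
Clec4e: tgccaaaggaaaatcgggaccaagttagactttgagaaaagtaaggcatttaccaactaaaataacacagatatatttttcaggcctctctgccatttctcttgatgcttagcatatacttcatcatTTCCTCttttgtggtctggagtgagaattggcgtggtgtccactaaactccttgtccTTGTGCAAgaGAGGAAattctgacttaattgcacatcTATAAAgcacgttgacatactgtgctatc
RefSeq windows were at hand for 8 of the 10 genes, all but Clec4n and Clec10a. They number 10, since Clec4a3 and Clec7a each have 2 overlapping windows. GAGGAA was present in 8 of these 10 windows, all but that of Clec4a2 and 1 of those of Clec4a3, whereas 23.3% of the 32851 windows of the same length held it. The 2 Clec7a windows hold the same match, 96 and 90 bases before their starts, so it is counted in both. By gene, all of the 8 but Clec4a2 held the word in at least 1 window. The difference from all windows was not tested. In Clec7a its only match began 96 bases before the start shown, in Clec4d it began 240 bases before, and Clec4e held it 123 and 56 bases before. The Clec4a2 window held no GAGGAA, only TATAAA at 161 bases, a word found in 12.4% of all windows. Clec4e held in addition TTGCNNAA at 66 bases (9.56% of all windows) and TATAAA at 29 bases. TGANTCA, the AP-1 word found in 6.75% of all windows, was searched as well and among the 8 genes occurred only before Clec12a. The longer PU.1 word GAGGAAGT, present in 2.44% of all windows, occurred in none of these 8 genes. The matches did not overlap each other. These are matches of letters, and binding was not measured.

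Total counts per library ran from 37852450 to 61845125. In PARP1CKO the mean Parp1 level fell by 1.75 on the log2 scale against PARP1 WT (edgeR quasi-likelihood test, adjusted p = 0.0134), from 202 and 211 CPM (counts per 1000000 counts of the TMM-scaled library) to 63.2 and 59.1 CPM. In PARP2CKO the Parp2 level fell by 0.91 (adjusted p = 0.000139), from 48.2 and 48.3 CPM to 25.7 and 25.6 CPM. The labelled cell type was checked by markers. Itgam, which encodes CD11b, was at 881 to 1035 CPM in all 8 libraries, Ly6c2 at 53.9 to 72.2 CPM, Ly6c1 at only 0.60 to 1.02 CPM and Csf1r at 1134 to 1273 CPM. Ly6g was listed as a marker but was not found under that symbol among the counts, so it could not be checked. The 5 B cell markers summed to 28.3 to 41.2 CPM in the 4 libraries of the PARP1 line and to 7.74 to 11.1 CPM in the 4 of the PARP2 line, and 6 macrophage markers to 2685 to 3016 CPM and 3017 to 3355 CPM. In such bulk samples, fewer cells of a type and less RNA per cell cannot be told apart. Every duplicate pair differed by more than counting noise over the genes. Libraries made from 1 sample could differ so too, so this cannot show that the samples were separate. They were treated as separate on the submitters' description.

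Clec4d was by far the most abundant of the receptors, and Clec10a the least (plot of fragment-scaled levels by gene). Levels are compared between genes only per length, as CPM per kilobase of exon (FPKM), computed here from the counts. Clec4d encodes MCL, an Fc receptor gamma chain partner of Mincle, and its FPKM lay between 332 and 434 over the 8 libraries, with a mean of 365. Clec4n, which encodes the mannan receptor Dectin-2, followed at 58.1 to 116 FPKM (mean 73.3). Clec12a, which encodes the inhibitory receptor MICL, was at 37.8 to 44.9 FPKM (mean 40.1).

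**Figure D1:**
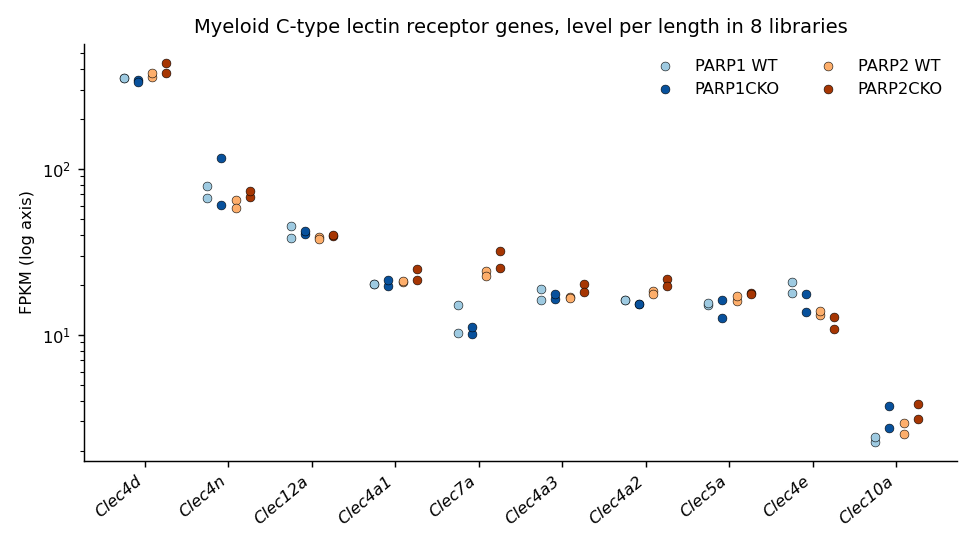
FPKM of each receptor gene on a log axis, 1 point per library (2 in each of the 4 groups, by colour), genes ordered by their mean over the 8 libraries. Clec4d sits between 332 and 434, and Clec10a between 2.26 and 3.81.

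A middle group of 6 genes was close together. Their mean levels were 21.2 FPKM for Clec4a1, 18.8 for Clec7a, 17.6 for Clec4a3, 17.5 for Clec4a2, 16.0 for Clec5a and 15.1 for Clec4e. The ranges of neighbours in this order overlapped, and Clec4a1 was above Clec7a in only 4 of 8 libraries. Clec4a1 was above Clec4a3, Clec4a2 and Clec5a in 8 of 8 libraries, but only against Clec5a without overlap (19.7 to 24.8 FPKM against 12.6 to 17.8 FPKM), and the ranges of all other pairs among the 6 overlapped. Clec7a was above Clec4a1 in the libraries of the PARP2 line (22.5 to 31.9 FPKM against 20.8 to 24.8 FPKM over both groups) and below it in those of the PARP1 line (10.2 to 15.0 FPKM against 19.7 to 21.2 FPKM). By contrast, Clec4d over Clec4n, Clec4n over Clec12a, Clec12a over Clec4a1 and Clec4e over Clec10a held in 8 of 8 libraries without overlap. Clec10a, which encodes a galactose-type lectin of macrophages and dendritic cells, had a mean of 2.94 FPKM, from 254 to 659 counts per library, the fewest of the 10 genes. The depth was ample for the rest, with at least 969 counts in every library.

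The receptors differed in how much they varied. Clec7a ranged 3.15-fold between its lowest and highest library, a log2 range of 1.65 that was wider than that of 95.8% of all genes tested. Clec4n followed with a log2 range of 1.0 and Clec4e with 0.93, and the narrowest was Clec12a with 0.25. The median over all genes tested was 0.28. In Clec7a the extremes were PARP1CKO replicate 1 and PARP2CKO replicate 1, while in Clec4n they were PARP2 WT replicate 2 and PARP1CKO replicate 2 (plot of CPM by group).

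**Figure D2:**
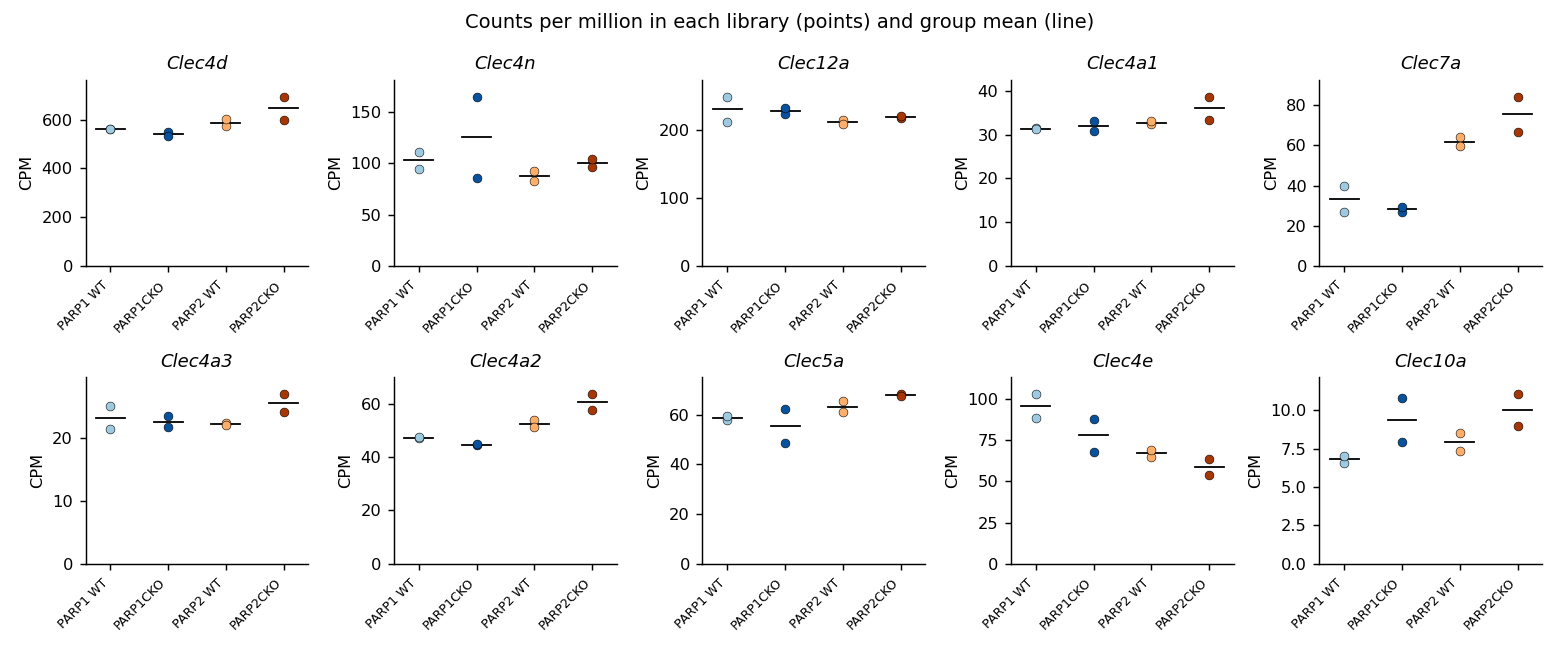
CPM, scaled by TMM, of each receptor gene in its own panel, with points for the 2 libraries of each group and a bar at their mean; the axes differ between panels. For Clec7a the 4 PARP2 line libraries (59.4 to 84.2) lie above the 4 PARP1 line libraries (26.8 to 39.6), and Clec4n has 1 high library (165, PARP1CKO replicate 2).

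PARP1 deletion was compared with its Cre-free littermates to see which receptors it altered. No receptor gene changed in PARP1CKO against PARP1 WT at an adjusted p under 0.05 in edgeR's quasi-likelihood test, against 0.106% of all genes tested. The likelihood-ratio test and DESeq2 also called 0 of 10, against 1.11% and 0.754% of all genes, and 2 had an unadjusted p under 0.05, against 11.3% of all genes. Of the 10 receptors, 3 were higher and 7 lower, with a median log2 fold change of -0.05 against 0.01 over all genes. In 1 gene the PARP1CKO libraries lay wholly above and in 3 wholly below the PARP1 WT libraries, against 21% and 20.2% of all genes. All 5 B cell (median 0.27), 3 erythroid (0.83) and 2 T and NK cell markers tested (0.47) were higher in PARP1CKO. Of 4 monocyte markers 3 were lower (-0.15), as were 6 of 8 dendritic cell markers (-0.08). Of 6 macrophage markers 4 were higher (0.06), as were 6 of 11 neutrophil (0.04) and 3 of 4 eosinophil markers (0.19). Lower were 2 of 3 immature myeloid (-0.07), 3 of 4 granulocyte progenitor (-0.05) and 5 of 6 basophil and mast cell markers (-0.10). None of these was called. An unadjusted p under 0.05 in edgeR was found for 1 erythroid, 1 monocyte, 1 T and NK cell, 1 macrophage and 1 neutrophil marker. Their part in the receptor values was not tested.

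Among the activating receptors, Clec4e encodes Mincle, which recognises the mycobacterial cord factor and products of dying cells. It was at 103 and 88.4 CPM in PARP1 WT against 68.2 and 87.8 CPM in PARP1CKO. The groups did not overlap, but the upper PARP1CKO library came close to the lower control. The log2 fold change was -0.30 ± 0.12 (SE; 95% interval -0.57 to -0.02; n = 2 and 2) with an edgeR adjusted p of 0.418. Clec4d, its partner, was at 563 and 562 CPM in PARP1 WT against 548 and 532 CPM in PARP1CKO, a log2 fold change of -0.06 ± 0.07. Clec7a encodes Dectin-1, the β-glucan receptor with a tyrosine motif in its own tail. Its levels were 26.9 and 39.6 CPM in PARP1 WT against 26.8 and 29.6 CPM in PARP1CKO, so that only PARP1 WT replicate 2 stood above the rest. The log2 fold change of -0.25 ± 0.17 became 0.06 without that library. Clec5a, the Tyrobp-coupled receptor MDL-1, was at 57.9 and 59.6 CPM in PARP1 WT, on both sides of which lay the PARP1CKO libraries at 48.5 and 62.3 CPM.

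Clec4n gave no stable direction. It was at 111 and 94.9 CPM in PARP1 WT against 85.8 and 165 CPM in PARP1CKO, whose 2 libraries were the lower and the upper extreme of the PARP1 line. The log2 fold change was 0.28 ± 0.24 (edgeR adjusted p = 0.677). It was -0.26 without PARP1CKO replicate 2 and 0.68 without PARP1CKO replicate 1. Each of these fits left 1 PARP1CKO library, so no call is read from them. A sum over 10 interferon-response genes, a list added after the values were seen, came to 181 CPM in PARP1CKO replicate 2, to 90.5 CPM in PARP1CKO replicate 1 and to 40.8 to 113 CPM in the other 6 libraries. The part of this in the Clec4n value was not tested.

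The inhibitory and remaining receptors gave no call either, and the largest log2 fold change among them was that of Clec10a. Clec4a2 encodes DCIR, which carries an inhibitory motif. Its levels of 47.2 and 47.3 CPM in PARP1 WT against 44.5 and 44.8 CPM in PARP1CKO did not overlap, and the log2 fold change was -0.08 ± 0.05. Clec12a, at 248 and 212 CPM in the controls and 222 and 232 CPM after deletion, had a log2 fold change of -0.02 ± 0.07, and the DCIR relatives Clec4a1 and Clec4a3 had 0.02 ± 0.07 and -0.04 ± 0.09. Clec10a was at 6.56 and 7.03 CPM in PARP1 WT against 7.95 and 10.8 CPM in PARP1CKO. Both PARP1CKO libraries were above both controls, with a log2 fold change of 0.46 ± 0.16 (95% interval 0.09 to 0.83; unadjusted p = 0.0204 and adjusted p = 0.358 in edgeR). It was 0.22 without PARP1CKO replicate 2 and 0.67 without PARP1CKO replicate 1. For Clec4e, leaving out these libraries gave -0.49 and -0.12.

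PARP2 deletion was examined in the same way. No receptor gene changed in PARP2CKO against PARP2 WT in edgeR's quasi-likelihood test, where 0.053% of all genes did, nor in the likelihood-ratio test (0.296% of all genes) or DESeq2 (0.205%). Again 2 of the 10 had an unadjusted p under 0.05, against 4.83% of all genes. Fitted levels were higher in PARP2CKO for 9 of the 10 receptors, with a median log2 fold change of 0.17, while 49.3% of all genes were higher and the median over all genes was 0.00. In 8 receptors both PARP2CKO libraries lay above both PARP2 WT libraries (18.4% of all genes), and in 1, Clec4e, both lay below (18.8%). The members share these 4 libraries, so the counts describe these libraries only. In the same comparison 10 of 11 neutrophil markers were lower in PARP2CKO (median log2 fold change -0.22, 0 called, 4 at an unadjusted p under 0.05 in edgeR), as were 6 of 6 basophil and mast cell markers (median -0.36, 0 called, 1 at an unadjusted p under 0.05), 4 of 5 B cell markers (median -0.18, 0 called, 0 at an unadjusted p under 0.05) and both T and NK cell markers tested (median -0.53, 0 called, 0 at an unadjusted p under 0.05). Of 6 macrophage markers, 4 were higher and 2 lower (median 0.05, 0 called, 2 at an unadjusted p under 0.05). Of 3 immature myeloid markers, 2 were lower (median -0.24, 0 called, 1 at an unadjusted p under 0.05). Of 4 monocyte markers, 3 were lower (median -0.04, 0 called, 1 at an unadjusted p under 0.05). Of 4 granulocyte progenitor markers, 3 were lower (median -0.09), and of 8 dendritic cell markers 5 were higher (median 0.02), with 0 called and 0 at such a p. Of 4 eosinophil markers, 2 were lower (median -0.14, 0 called, 1 at such a p), as were 2 of 3 erythroid markers (median -0.32, 0 called, 0 at such a p). The part of these lists in the receptor values was not tested.

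**Figure D3:**
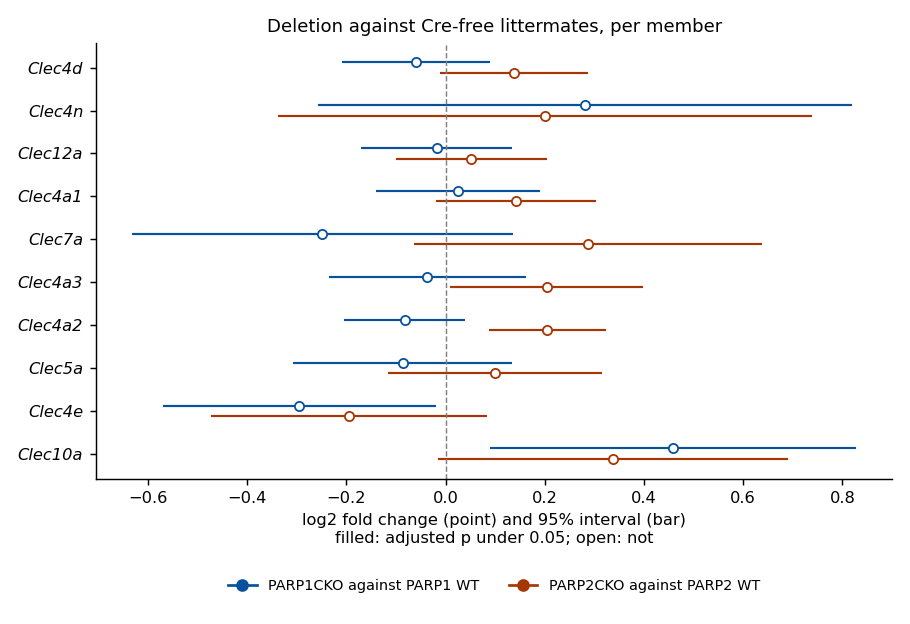
Log2 fold change of each receptor gene on deletion of PARP1 or PARP2 against the Cre-free littermates (2 libraries against 2), with bars for the 95% interval and open points for an adjusted p of 0.05 or above. All points are open. For PARP2 the points run from -0.19 (Clec4e) to 0.34 (Clec10a).

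Clec4a2 had the smallest p of the 10. It was at 53.8 and 51.3 CPM in PARP2 WT against 63.5 and 57.6 CPM in PARP2CKO, with no overlap. The log2 fold change was 0.21 ± 0.05 (95% interval 0.09 to 0.32; unadjusted p = 0.00352 and adjusted p = 0.704 in edgeR). Its neighbour Clec4a3, at 22.3 and 22.0 CPM in PARP2 WT against 26.9 and 24.1 CPM in PARP2CKO, had a log2 fold change of 0.20 ± 0.09, and Clec4a1, which went from 32.3 and 33.0 CPM to 38.7 and 33.3 CPM, had 0.14 ± 0.07. In all 3 genes of this DCIR group both PARP2CKO libraries were above both controls, for Clec4a1 by a small margin. Without PARP2CKO replicate 1 the log2 fold change was 0.13 for Clec4a2, 0.12 for Clec4a3 and 0.03 for Clec4a1. For Clec12a, the other receptor with an inhibitory motif, the PARP2 WT libraries were at 214 and 209 CPM and the PARP2CKO libraries at 217 and 221 CPM, a log2 fold change of 0.05 ± 0.07.

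Of the 5 activating receptors, 4 had a positive and 1, Clec4e, a negative fitted value. Clec7a was at 64.3 and 59.4 CPM in PARP2 WT against 84.2 and 66.6 CPM in PARP2CKO, where the 2 libraries differed more from each other than the nearest libraries of the 2 groups did. Its log2 fold change was 0.29 ± 0.15 (95% interval -0.06 to 0.64; edgeR adjusted p = 0.954). Clec4d was at 575 and 601 CPM in PARP2 WT against 600 and 694 CPM in PARP2CKO, and the groups overlapped by a small margin at a log2 fold change of 0.14 ± 0.07. Clec4n went from 92.4 and 82.5 CPM to 96.4 and 105 CPM, and Clec5a from 61.0 and 65.6 CPM to 68.3 and 67.4 CPM. Clec4e was lower, at 65.1 and 69.3 CPM in PARP2 WT against 54.0 and 63.5 CPM in PARP2CKO (log2 fold change -0.19 ± 0.12). Clec10a was at 8.54 and 7.34 CPM in PARP2 WT against 11.0 and 8.99 CPM in PARP2CKO (0.34 ± 0.16). None of these values passed the threshold. Without PARP2CKO replicate 1 the log2 fold change was 0.11 for Clec7a, 0.18 for Clec10a, -0.08 for Clec4e and 0.24 for Clec4d. Without PARP2CKO replicate 2 it was 0.45 for Clec7a, -0.31 for Clec4e and 0.03 for Clec4d. That of Clec4n was 0.12 without PARP2 WT replicate 2, and that of Clec5a 0.05 without PARP2 WT replicate 1 and 0.16 without PARP2 WT replicate 2.

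The 2 deletion effects were then set against each other through the interaction term of the same model. For no receptor gene did the effects differ at an adjusted p under 0.05, against 0.0152% of all genes, and the likelihood-ratio test (0.546% of all genes) and DESeq2 (0.362%) called 0 as well. An unadjusted p under 0.05 was found for 2 (7.69% of all genes). These were Clec4a2, whose PARP2CKO effect exceeded its PARP1CKO effect by 0.29 ± 0.07 on the log2 scale (adjusted p = 0.476 in edgeR), and Clec7a, where the difference was 0.54 ± 0.23 (95% interval 0.02 to 1.06; adjusted p = 0.641). The Clec7a difference was 0.23 without PARP1 WT replicate 2, 0.35 without PARP2CKO replicate 1 and at most 0.78 without any other 1 library. Intervals for the other receptors all held zero, and the widest, that of Clec4n, ran from -0.84 to 0.68. With 2 libraries a group, an exact permutation test of a single receptor could not give a two-sided p below 0.3333.

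Averaged over both lines, the deletion effect was also called for 0 of the 10 receptors by edgeR's quasi-likelihood test (0.106% of all genes), the likelihood-ratio test (0.659%) and DESeq2 (0.455%). For 2 the unadjusted p was under 0.05, against 9.17% of all genes. Clec10a had the largest mean effect, 0.40 ± 0.11 on the log2 scale (95% interval 0.14 to 0.65; adjusted p = 0.389), and Clec4e the lowest, -0.24 ± 0.09 (95% interval -0.44 to -0.05; adjusted p = 0.488). In each of the lines, Clec10a was higher and Clec4e lower in both CKO libraries than in both controls. They were the only members for which the groups separated in the same direction in both lines, 1 upward and 1 downward, where 4.3% of all genes did so upward and 4.09% downward. The Clec4e mean effect was -0.16 without PARP1CKO replicate 1.

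With all 8 libraries, every receptor called by edgeR's quasi-likelihood test came from a comparison between the floxed lines. In the comparison of controls, PARP2 WT against PARP1 WT, 1 receptor was called, against 3.16% of all genes in either direction and 1.92% upward. This was Clec7a, at 26.9 and 39.6 CPM in PARP1 WT against 64.3 and 59.4 CPM in PARP2 WT. Both PARP2 WT libraries were above both PARP1 WT libraries by more than the spread within either group. The log2 fold change was 0.89 ± 0.16 (95% interval 0.52 to 1.26), a 1.85-fold higher level, with an edgeR adjusted p of 0.0256. Without PARP1 WT replicate 1 the log2 fold change was 0.64, and without PARP1 WT replicate 2 it was 1.201. It was 0.83 without PARP2 WT replicate 1 and 0.94 without PARP2 WT replicate 2. Each of these fits left 1 library in a group compared, so they cannot decide whether the call holds. These controls come from separate floxed lines, and the line and any batch of culture or sequencing cannot be told apart.

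Clec4e was the receptor that came next. It was at 103 and 88.4 CPM in PARP1 WT against 65.1 and 69.3 CPM in PARP2 WT, without overlap. Its log2 fold change was -0.51 ± 0.12 (95% interval -0.79 to -0.23), and the edgeR quasi-likelihood adjusted p of 0.0620 missed the threshold, while the likelihood-ratio test (adjusted p = 0.00214) and DESeq2 (adjusted p = 0.000139) called it. Both tests thus called 2 receptors, against 6.9% and 4.43% of all genes. An unadjusted p under 0.05 was found for 3 of the 10 (18.9% of all genes), the third being Clec4a2 at 0.15 ± 0.05. The remaining 7 had log2 fold changes from -0.24 (Clec4n) to 0.22 (Clec10a). That of Clec4n was -0.12 without PARP1 WT replicate 1 and -0.35 without PARP1 WT replicate 2. That of Clec10a was 0.11 without PARP2 WT replicate 1 and 0.33 without PARP2 WT replicate 2. In 6 receptors the PARP2 WT libraries lay wholly above the PARP1 WT libraries, against 26.7% of all genes, and in 2 wholly below (25.2%).

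The same comparison of lines was made between the deleted groups, after the values had been seen. In PARP2CKO against PARP1CKO, 3 receptors were called, against 10.3% of all genes. All 3 were higher in PARP2CKO, as were 4.99% of all genes, and 6 of the 10 had an unadjusted p under 0.05 (26.6% of all genes). Clec7a was at 26.8 and 29.6 CPM in PARP1CKO and at 84.2 and 66.6 CPM in PARP2CKO, a 2.68-fold higher level, with a log2 fold change of 1.42 ± 0.16 (edgeR adjusted p = 0.00181). Leaving out any 1 of the 8 libraries kept this value between 1.24 and 1.58. Clec4a2 was at 44.5 and 44.8 CPM in PARP1CKO against 63.5 and 57.6 CPM in PARP2CKO, and its log2 fold change was 0.44 ± 0.05 (adjusted p = 0.00213). Clec4d, at 548 and 532 CPM against 600 and 694 CPM, had a log2 fold change of 0.26 ± 0.07 (adjusted p = 0.0386). This call for Clec4d was lost with scaling by library size alone (0.20, adjusted p = 0.0908) and when only the 4 libraries compared were fitted (adjusted p = 0.0819). The call was lost too when any PARP1 WT or PARP2 WT library was left out, which kept 2 libraries in each group compared. With any 1 library left out the log2 fold change ran from 0.15 to 0.36. The likelihood-ratio test and DESeq2 called 5 receptors, against 14.4% and 9.82% of all genes, adding Clec4e (log2 fold change -0.41 ± 0.12) and Clec5a (0.29 ± 0.10). These values were -0.22 and 0.49 without PARP1CKO replicate 2, and -0.58 and 0.12 without PARP1CKO replicate 1. In 6 receptors both PARP2CKO libraries lay above both PARP1CKO libraries (28% of all genes) and in 2 both lay below (28.4%). This comparison holds the effects of both deletions beside the difference of lines.

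Over all 4 libraries of each line, 3 receptors did not overlap, each higher in the PARP2 line, a pattern that 10.5% of all genes showed in that direction and 9.93% in the other. Clec7a was at 26.8 to 39.6 CPM in the PARP1 line and at 59.4 to 84.2 CPM in the PARP2 line. Clec4a2 was at 44.5 to 47.3 CPM and 51.3 to 63.5 CPM, and Clec4d at 532 to 563 CPM and 575 to 694 CPM. Clec4e overlapped slightly, at 68.2 to 103 CPM and 54.0 to 69.3 CPM, and so did Clec5a, at 48.5 to 62.3 CPM and 61.0 to 68.3 CPM. Clec12a was nearly level, at 212 to 248 CPM and 209 to 221 CPM (plot of line differences).

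**Figure D4:**
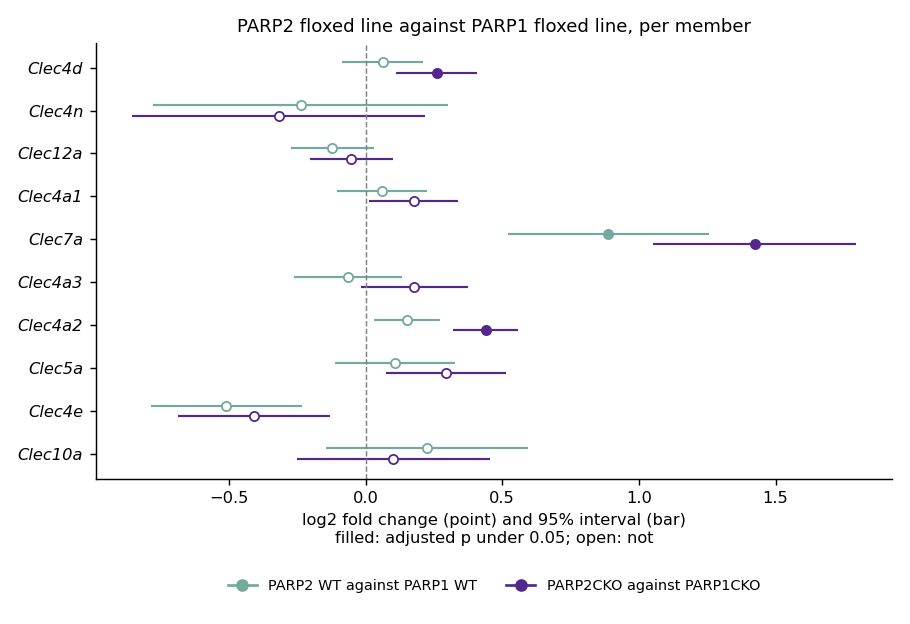
Log2 fold change of each receptor gene between the floxed lines, PARP2 WT against PARP1 WT and PARP2CKO against PARP1CKO (2 libraries against 2), with bars for the 95% interval and filled points for an adjusted p under 0.05. Clec7a stands at 0.89 and 1.42, and Clec4e lies on the negative side in both comparisons (-0.51 and -0.41).

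Markers of cell types also differed between the lines. They are read against 3.16% of all genes called between the controls and 10.3% between the deleted groups. All 5 B cell markers were called lower in the PARP2 line in both comparisons (median log2 fold changes -1.81 and -2.18). All 6 macrophage markers had a higher value there in both (medians 0.20 and 0.25), of which Mertk was called in both and C1qc between the deleted groups. Mertk, a receptor for the uptake of dying cells, was at 35.0 to 43.2 CPM in the PARP1 line and at 55.3 to 77.7 CPM in the PARP2 line. Of the 3 immature myeloid markers tested, 0 were called by edgeR in either comparison (2 and 1 at an unadjusted p under 0.05). Of 4 monocyte markers, 3 were higher between the controls (0 called by edgeR, 2 at an unadjusted p under 0.05) and 4 between the deleted groups, where F13a1 was called. Of 8 dendritic cell markers, 2 were higher between the controls (0 called, 2 at an unadjusted p under 0.05) and 4 between the deleted groups, where Itgax was called higher. All 4 granulocyte progenitor markers were higher in both comparisons (median 0.38 in each; Prtn3 and Elane called in both and Mpo between the deleted groups), and the summed level of their list ran from 256 to 302 CPM in the PARP1 line and from 347 to 392 CPM in the PARP2 line. All 6 basophil and mast cell markers were lower in both comparisons, with medians of -0.72 and -0.97. Between the controls 0 of them were called by edgeR and 5 had an unadjusted p under 0.05, and between the deleted groups Prss34, Cpa3, Mcpt8 and Fcer1a were called. Their summed level was 14.8 to 20.9 CPM in the PARP1 line and 8.13 to 12.6 CPM in the PARP2 line. Of 11 neutrophil markers, 5 were higher and 6 lower between the controls. Retnlg and Mmp9 were called lower there, and Mmp9, Retnlg and Cxcr2 between the deleted groups. Retnlg was at 17.5 to 19.98 CPM in the PARP1 line and 7.27 to 12.97 CPM in the PARP2 line, and Mmp9, a secreted matrix metalloproteinase of neutrophil granules, at 46.7 to 56.2 CPM and 21.5 to 32.5 CPM. Of 4 eosinophil markers, 0 were called between the controls by edgeR (1 at an unadjusted p under 0.05), and Prg2 and Il5ra were called lower between the deleted groups. The 3 erythroid markers tested were lower in both comparisons, where the globin gene Hba-a1 was called in both and Hbb-bt between the deleted groups. Hba-a1 was at 1.77 to 3.83 CPM in the PARP1 line and 0.57 to 0.81 CPM in the PARP2 line. Of 6 T and NK cell markers, Cd3d, Cd3e, Cd3g and Ncr1 were at most at 0.12 CPM in any library and Cd8a at 0.12 to 0.42 CPM. Cd4 was at 1.16 to 2.85 CPM and was called lower in PARP2CKO than in PARP1CKO. The summed level of this list was 2.14 to 2.34 CPM for PARP1 WT, 2.74 to 3.47 CPM for PARP1CKO, 2.23 to 2.31 CPM for PARP2 WT and 1.39 to 2.09 CPM for PARP2CKO. The part of these lists in the receptor values was not tested.

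The line comparisons were also read for the genes around the receptors. Over all genes, 3.16% were called between the controls and 10.3% between the deleted groups. Within 500 kb of Clec12a and Clec7a, 17 other genes were tested. Of these, 0 were called between the controls by edgeR's quasi-likelihood test, and Klra17 alone between the deleted groups, with a log2 fold change of -2.32 and thus opposite to Clec7a. Olr1, a scavenger receptor of the same lectin family 34.4 kb away, had 0.64 ± 0.18 between the controls (adjusted p = 0.0998) and 0.13 ± 0.18 between the deleted groups. Klrd1 and Klrk1, NK cell lectin receptor genes 119 and 151 kb away with mean levels of only 0.66 and 0.91 CPM, had 0.09 ± 0.44 and 0.40 ± 0.49 between the controls, and 0.84 ± 0.52 (adjusted p = 0.343) and 1.204 ± 0.54 (adjusted p = 0.194) between the deleted groups. In the other direction, BC064078 had -0.54 ± 0.21 and -0.63 ± 0.20 (adjusted p = 0.207 and 0.0802) and Cd69 -0.65 ± 0.25 and -0.40 ± 0.25 (adjusted p = 0.210 and 0.354). Clec12a, 130.1 kb from Clec7a, had -0.12 ± 0.07 and -0.05 ± 0.07. The first value was -0.0025 without PARP1 WT replicate 1 and -0.23 without PARP1 WT replicate 2. The second was -0.08 without PARP1CKO replicate 1 and -0.02 without PARP1CKO replicate 2. Around the Clec4 cluster, 0 of 10 other genes were called between the controls and 2 between the deleted groups, Dppa3 and the C-type lectin gene Clec4b1. Around Clec5a 0 of 4 were called in either, and around Clec10a, in a denser part of the genome, 2 of 49 and 10 of 49 (plot of the Clec7a neighbourhood).

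**Figure D5:**
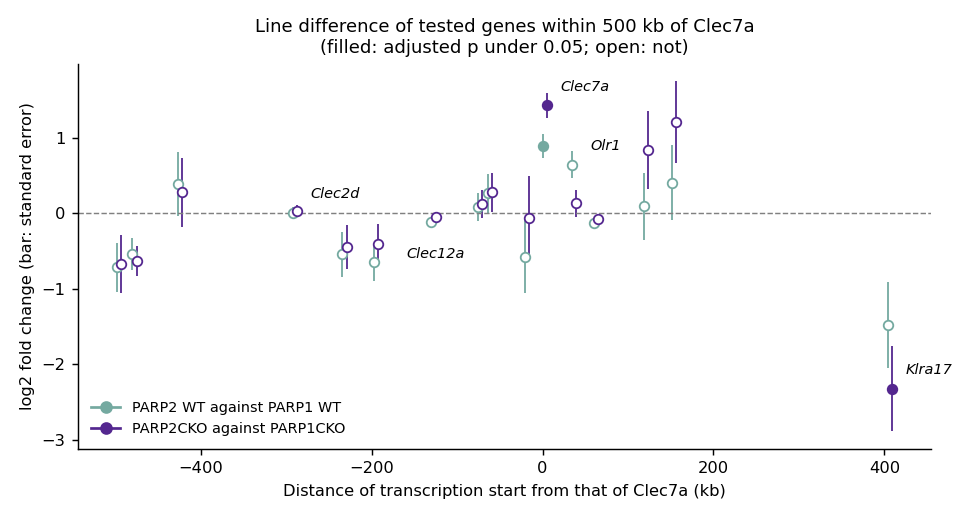
Log2 fold change between the lines of every tested gene within 500 kb of Clec7a, placed by the distance of its transcription start from that of Clec7a in kb, with bars for the standard error and filled points for an adjusted p under 0.05. Clec7a is filled in both comparisons, and Klra17 (-2.32) only between the deleted groups.

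The genes whose pattern over the 8 libraries was closest to that of the 3 most variable receptors were then listed, by the root mean square difference of centred log2 CPM over 11447 genes with a mean of at least 1 CPM. For Clec7a they were Mmp14 (0.11), a membrane-bound matrix metalloproteinase, Als2cl (0.16) and Acp5 (0.16), the tartrate-resistant phosphatase of osteoclasts and macrophages. Each of them separated the lines as Clec7a did. Mmp14 was at 3.27 to 4.03 CPM in the PARP1 line and 6.25 to 9.76 CPM in the PARP2 line, and Acp5 at 2.76 to 3.43 CPM and 5.55 to 8.06 CPM. For Clec4n the closest were Gm14305 (0.11), Slfn5 (0.15) and Treml4 (0.15). For Clec4e they were AW112010 (0.08), Pmaip1 (0.08) and Gpr141 (0.09). These are descriptions over 8 libraries, chosen out of many genes, and carry no test.

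The partners and signalling genes of the receptors are read against the shares over all genes already given, which for PARP1CKO, PARP2CKO, the controls and the deleted groups were 0.106%, 0.053%, 3.16% and 10.3% called and 11.3%, 4.83%, 18.9% and 26.6% at an unadjusted p under 0.05. Of the 3 activating adaptors (Fcer1g, Tyrobp and Hcst), 0 were called by edgeR on deletion of PARP1 or of PARP2, in the interaction or between the controls, by an unadjusted p under 0.05 also 0 in each. Fcer1g was at 769 to 900 CPM over the 8 libraries and Tyrobp at 549 to 647 CPM, while Hcst, which encodes DAP10, was at 2.09 to 3.01 CPM. Between the deleted groups Fcer1g was called lower in PARP2CKO. Of 10 genes of Syk and Card9 signalling, 0 were called on either deletion, with 1 (Syk, -0.10 ± 0.04) at an unadjusted p under 0.05 for PARP1CKO and 0 for PARP2CKO. Their median log2 fold changes were -0.01 and 0.01. Between the controls 0 were called and 2, Plcg2 (-0.13 ± 0.04) and Card9 (0.16 ± 0.06), had an unadjusted p under 0.05, and between the deleted groups Syk was called, 0.20 ± 0.04 higher in PARP2CKO (adjusted p = 0.0192). Of the 3 phosphatases (Ptpn6, Ptpn11 and Inpp5d), 0 were called in any of these comparisons.

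Among 25 other C-type lectin genes, 18 passed the filter. On deletion of PARP1 and of PARP2 0 of the 18 were called by edgeR, and 3 and 2 had an unadjusted p under 0.05, against 0.106% and 0.053% of all genes called and 11.3% and 4.83% at an unadjusted p under 0.05. Cd302, an endocytic lectin, had the smallest p in both, with log2 fold changes of 0.23 ± 0.05 (adjusted p = 0.215) and 0.21 ± 0.05 (adjusted p = 0.648). Its PARP1 WT libraries were at 18.5 and 18.1 CPM and its PARP1CKO libraries at 21.6 and 21.4 CPM, while PARP2 WT had 24.4 and 24.3 CPM and PARP2CKO 28.6 and 27.6 CPM, so that the groups did not overlap in either line. Between the controls 2 of the 18 were called, against 3.16% of all genes, both higher in PARP2 WT. These were Cd302 (0.41 ± 0.05, adjusted p = 0.00613) and Ly75 (0.73 ± 0.14, adjusted p = 0.0306), which encodes the dendritic cell receptor DEC-205. Between the deleted groups 5 of the 18 were called, against 10.3% of all genes, with Cd302, Cd93, Colec12 and Clec4b1 higher and Cd209a lower in PARP2CKO.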

How the data were processed

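Immature myeloid cells were profiled by RNA-seq in 8 libraries. Per the labels and the study's methods, total RNA (4 µg) was made into stranded libraries, sequenced as single 75-base reads, aligned to mm10 with TopHat2 2.0.12, and duplicates were marked with Picard 1.127. The authors deposited raw counts per gene symbol from featureCounts. The gene annotation and the strand setting of the counting are not given in the sources used here, and no exon of the 10 receptor genes overlaps another gene. Marked duplicates may limit the counts of abundant genes if they were left out, which the sources do not state.

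Counts were fitted for all genes and all 8 libraries with edgeR 4.0.16 (TMM, filterByExpr, quasi-likelihood test, R 4.3.3), with Benjamini-Hochberg adjustment over 13197 genes and a threshold of 0.05. CPM and FPKM were computed from the counts (FPKM with GENCODE M21 exon unions). The standard error of a log2 fold change is its size over the square root of F. The script was tested on simulated data. Alternatives were DESeq2 1.42.0, the likelihood-ratio test, other scalings and filters, only the libraries compared, a replicate block, a threshold of 0.1, and each library left out. The members, gene lists and comparisons were chosen with earlier results of these data known. All 10 members were tested in every comparison and enter every count. Not each is named in each comparison, least of all in the interaction and the mean effect. Of the other lists, counts are given for the deletion and line comparisons, with the genes that passed. In the signalling and lectin lists some genes with the smallest p are also named, and a few levels are named as context. PARP2CKO against PARP1CKO and the interferon-response list were added after values were seen. Of the 24062 symbols, 22711 matched a single GENCODE gene. Promoters come from RefSeq (GRCm38.p6). Libraries are called biological duplicates by the submitters. The p-values rest on the spread between duplicates, pooled over the 4 groups and with information shared over all genes. Where 1 library was left out, its group held 1 library and the other groups supplied the spread. A further macrophage marker is not reported here.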

Additional observations from a re-analysis of the deposited data

How the results depend on the processing

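The number of receptors called between PARP2 WT and PARP1 WT was 1, and it was 2 with DESeq2, the likelihood-ratio test, no filter on low counts, an adjusted p of 0.1, or only the 4 libraries compared. Between PARP2CKO and PARP1CKO it was 3, and it was 5 with DESeq2, the likelihood-ratio test, no filter and an adjusted p of 0.1. It was 2, Clec4a2 and Clec7a, with only the 4 libraries compared, and with library size only it was 3 with Clec4e in place of Clec4d. Leaving out 1 library left 1 in its group, and the other groups then supplied the spread. For these comparisons and for PARP1CKO against PARP1 WT, calls in those fits are therefore not counted here. For PARP2CKO against PARP2 WT, the interaction and the mean of effects, 0 receptors were called under every alternative run. The causes of these shifts were not tested. Over all genes, the likelihood-ratio test called 146, 39, 72, 910, 87 and 1906 genes, DESeq2 86, 27, 45, 551, 60 and 1246, and the fit without a filter 101, 26, 61, 872, 71 and 1828, for PARP1CKO, PARP2CKO, the interaction, the controls, the mean effect and the deleted groups, against 14, 7, 2, 417, 14 and 1363 by the quasi-likelihood test.

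Of the receptors' log2 fold changes under alternatives, 32 changed sign. Not every setting could change one. The threshold of 0.1 used the main fit, and leaving out a library of a group not compared acted only through the shared spread. With library size only, the mean effect of Clec5a was -0.0078. The other sign changes came from leaving out 1 library, with these ranges of the log2 fold change. For PARP1CKO against PARP1 WT Clec4a1 (-0.029 to 0.077), Clec4a3 (-0.15 to 0.076), Clec4n (-0.26 to 0.68), Clec5a (-0.28 to 0.084), Clec7a (-0.49 to 0.063) and Clec12a (-0.13 to 0.098). For the interaction Clec4e (-0.071 to 0.29), Clec4n (-0.48 to 0.47), Clec10a (-0.33 to 0.12) and Clec12a (-0.046 to 0.19). Between the controls Clec4a3 (-0.18 to 0.052). For the mean effect Clec4d (-0.016 to 0.0900), Clec4n (-0.032 to 0.44), Clec5a (-0.089 to 0.092), Clec7a (-0.10 to 0.18) and Clec12a (-0.041 to 0.075). Between the deleted groups Clec4n (-0.71 to 0.23) and Clec10a (-0.11 to 0.34).

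Scaling moved the median of all genes by at most 0.06 on the log2 scale. Same-numbered libraries did not deviate together in every pair (correlations from -0.13 to 0.15). The value was -0.13 within the PARP1 line and 0.15 within the PARP2 line. Such values cannot settle whether any libraries were handled as pairs. With the replicate block the receptors called were 0, 0, 0, 1, 0 and 3 in the order above, out of 14, 6, 3, 315, 6 and 1142 genes. With the numbers of PARP1CKO crossed, PARP1CKO against PARP1 WT gave 0 receptors and 18 genes. Depth limits Clec10a most, at 254 to 659 counts per library.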
